A study of Arabidopsis thaliana with 7 samples.

Results

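Wild-type Arabidopsis flowers that received a mock spray were compared with wild-type flowers that received none, 1 array a side, which is 2 of the 7 arrays of the series. The arrays were chosen by their titles. Both hold flowers of stages 1 to 14 from the Columbia accession, taken from plants grown for 6 weeks in long days. The mock solution contained 1% methanol and 0.05% Tween-20 without hormone, and flowers were harvested 30 minutes after spraying. The 5 other arrays are wild-type flowers that received indole-3-acetic acid (IAA), an auxin, in the same solution, and untreated and IAA-sprayed flowers of 2 mutants in the auxin response factor genes ARF6 and ARF8. One is the arf6 arf8 double mutant. The other is called the third genotype here, since its sources differ on the genotype: arf6/arf6 ARF8/arf8 in the sample labels, but a plant heterozygous for ARF6 in the series text. They differ on IAA as well, which is 10 µM in the labels but 10 mM in the text.

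A mock spray is the control for everything in a hormone treatment other than the hormone. Wetting and handling are mechanical stimuli, and touch is known in plants to change the transcripts of calcium-binding proteins, cell wall enzymes and stress-related transcription factors within minutes. Methanol is the solvent for IAA, and Tween-20 is a detergent that lets the solution spread over the waxy cuticle. The comparison asks which flower transcripts differ with the spray alone.

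With 1 array a side there is no replicate spread, so ratios are described with no p-value, and whether a difference would recur in other mock-sprayed flowers cannot be judged from the pair itself. Intensities are linear values in the units of the deposited table. Values under 64.9, the 25th percentile of all values, were set to that floor before log2 ratios were taken, so a ratio against a value under the floor is given as "at least". Of 22746 probe sets that are not Affymetrix controls, 13021 exceeded 248.1, the 50th percentile, on at least 1 of the 7 arrays and were kept. In whole flowers a change in the number of cells of a type and a change in RNA per cell cannot be told apart.

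The mock array differed from the others at its dim end. The 10th percentile of intensity was 26.9 there and between 9.4 and 17.89 elsewhere, while the 90th percentile was 1391.1 there and between 1426.2 and 1449.3 elsewhere. The double-mutant IAA array had the next highest 10th percentile, 17.89. Of the kept probe sets 320 passed the filter through the mock array alone. Flower tissue was checked on the few marker genes that are named here. The carpel gene SPT read 395.1 untreated and 486.4 with mock, the nectary sugar transporter SWEET9 1781.9 and 1627.1, the pollen gene AT59 828.1 and 921.5, and the tapetum gene A9 (AT5G07230) 517.6 and 552.1. Dimmer markers of the same cells differed more, the pollen gene AGL66 at 188.8 and 342.4 and the tapetum gene AMS at 177.6 and 123.9. AGL66 passed the filter through the mock array alone. The 3 pollen markers too dim to be kept ran both ways. ANX1 read 124.2 untreated and 77 with mock, AGL30 119.1 and 32.2, and AGL104 101.2 and 237.5. AP1, AP3, PI, AG and SEP3 are not among the named probe sets and were not used. The root gene PYK10 differed and is described with the dim genes. The 2 seed storage markers on the array did not pass the filter.

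Between mock and untreated flowers, 211 probe sets (1.62% of those kept) differed by 2-fold or more with mock as the higher, and 123 (0.945%) with mock as the lower. Of the higher ones 128 carry 1 gene, and of the lower ones 62. At 1.5-fold the numbers were 901 (6.92%) and 563 (4.32%). The log2 ratio over all kept probe sets had a median of -0.0169, and its 5th and 95th percentiles were -0.55 and 0.68. The counts depended on brightness. Among 10704 probe sets above 248.1 on both arrays, called bright here, 32 were at least 2-fold higher (0.299%) and 8 at least 2-fold lower (0.0747%). Of the other 2317, the shares were 7.73% and 4.96%. Most of the 2-fold differences therefore lay among probe sets that were dim on at least 1 array, 179 of 211 higher and 115 of 123 lower. Of the 211 higher probe sets, 92 were kept through the mock array alone and had to be higher there; with the filter taken over the other 6 arrays, a setting chosen after the data were seen, 119 were at least 2-fold higher and 123 lower. The split between directions moved with the scaling too. Of all 2-fold calls 63.2% were higher with mock, against 41.1% after quantile normalization, 42.7% with the 10th percentiles of the arrays aligned and 49.2% with the filter over the other 6 arrays. It was higher elsewhere, at 69.3% with bright probe sets scaled to a common median, 71.9% with the floor at the 40th percentile, 74.6% with the filter at the 70th, 75.7% with no filter and 80% with both arrays bright.

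**Figure D1:**
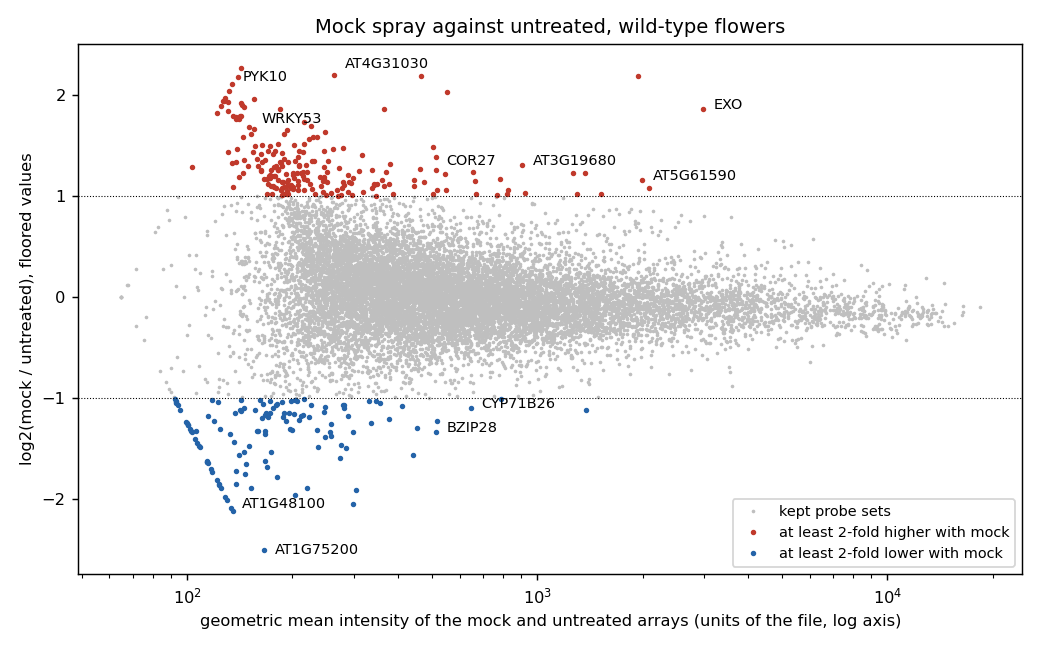
Log2 ratio of mock over untreated (y axis) against the geometric mean intensity of the 2 arrays (x axis, log scale) for the 13021 kept probe sets, each a point. Red points are at least 2-fold higher with mock (211) and blue points at least 2-fold lower (123); most lie at the dim left side, while EXO, COR27, AT3G19680 and AT5G61590 stand out among brighter probe sets.

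The largest difference of a named bright gene was that of EXO, which encodes an apoplastic protein of cell expansion that brassinosteroids are known to induce. EXO read 1557.6 untreated and 5650.4 with mock, a 3.63-fold difference. It was also high on every other sprayed array: 6699.1 with IAA in wild type, 3211.9 against 1156 untreated in the third genotype, and 3584.7 against 1261.8 in the double mutant. All 4 sprayed arrays were above all 3 untreated arrays. Genes named here for a large ratio are partly chosen for such a split, and its share over all kept probe sets is not given here.

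COR27, a cold-regulated gene that also acts on the circadian clock, read 332.5 untreated and 791.4 with mock, 2.38-fold higher. With IAA it read 777.1 in wild type, 1548 against 538.4 in the third genotype and 2095 against 581.8 in the double mutant. Here too the sprayed arrays did not overlap with the untreated ones. AT3G19680, a locus with no further name in the annotation used, read 575.1 untreated and 1418.9 with mock, 2.47-fold higher, and was between 1004.8 and 1895.2 on the 3 IAA arrays. AT5G61590 carries the synonym DEWAX (Decrease Wax Biosynthesis) and encodes a transcription factor that lowers the expression of wax synthesis genes. It read 1335.2 untreated, 2968.7 with mock and, in wild type with IAA, 3051.4. The third genotype went from 1431.7 to 2724 and the double mutant from 1297.7 to 1963.7, again with no overlap.

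Other bright genes were at least 1.5-fold above every other array on the mock array. AT1G55270 read 828.2 with mock, against 317.3 untreated and 319.8 to 402.5 on the other 5 arrays. AT2G47690 read 1007.3, against 428.8 untreated and 394.4 to 518.9 elsewhere, and AT3G11960 read 715.7, against 298.7 and 319 to 465.9. For these 3 genes the mock array was the highest of the 7. AT3G06830 read 704.8 with mock and 321 untreated, with 460 on the wild-type IAA array and 158.3 to 239.7 in the mutants. The remaining 2 of the 10 largest bright differences, rpl20 and ycf3, are plastid genes.

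Among bright genes lower with mock, BZIP28 had the largest difference. It encodes a membrane-bound transcription factor that is released under stress in the endoplasmic reticulum. BZIP28 read 819.2 untreated and 323.6 with mock, 2.53-fold lower, and lay between 621 and 878.1 on the other 5 arrays. The mock array was the lowest of the 7. AT1G01250 read 711.8 untreated, 289.5 with mock and, in wild type with IAA, 276.6, with 204 and 114.8 in the third genotype and 111.3 and 37.1 in the double mutant, untreated first. CYP71B26, a cytochrome P450 gene, read 944.4 untreated and 440.7 with mock, 2.14-fold lower. It was lower with IAA in each genotype as well, at 508.2 in wild type, 452.1 against 1148.5 in the third genotype and 567.5 against 1420.9 in the double mutant. All sprayed arrays lay below all untreated arrays for CYP71B26. The other 7 of the 10 were between 1.91-fold and 1.99-fold lower, among them EXPA15, an expansin gene, at 1355.8 untreated and 693.3 with mock.

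The mutant flowers gave a view of the same genes on other arrays, because the IAA spray is in the same solution and neither mutant pair shares an array with the wild-type mock pair. These pairs also carry IAA and a mutant genotype, which mock flowers do not. Of the 211 probe sets at least 2-fold higher with mock, 138 (65.4%) were higher with IAA than untreated in both mutant genotypes, against 30.5% of all kept probe sets. Without the 92 kept through the mock array alone it was 85 of 119 (71.4%), against 30.2%. Of the 123 lower ones, 61 (49.6%) were lower in both, against 32.5% of all. At 1.5-fold, 55 of the 211 (26.1%) were higher in the third genotype, where 3.18% of all kept probe sets were, and 107 (50.7%) in the double mutant, where 5.93% were. Without the 92 the numbers were 43 (36.1%) and 66 (55.5%) of 119, against 3.09% and 5.5%. Of the 123, 23 (18.7%) were lower in the third genotype (2.63% of all) and 47 (38.2%) in the double mutant (7.21% of all).

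Brightness bore on this share. Of the 32 bright probe sets higher with mock, 14 (43.8%) were at least 1.5-fold higher in the third genotype, compared with 20 (62.5%) in the double mutant. Over all bright probe sets the shares were 2.29% and 3.98%. Of the 179 others the numbers were 41 (22.9%) and 87 (48.6%), against 7.29% and 14.9% of all probe sets that were not bright. However, 92 of the 179 were kept through the mock array alone and had to be higher there. Without such probe sets the numbers were 29 (33.3%) and 46 (52.9%) of 87, against 7.41% and 13.6%. The double-mutant IAA array, with the larger shares, is the one with the second highest dim end, and the part of that in the shares was not tested. Over all bright probe sets the log2 ratio of mock correlated across probe sets with that of the third genotype at r = 0.338 and of the double mutant at r = 0.361 (10704 probe sets, which are not independent replicates). Of the 211, 86 were under 1.5-fold higher in both mutant pairs.

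**Figure D2:**
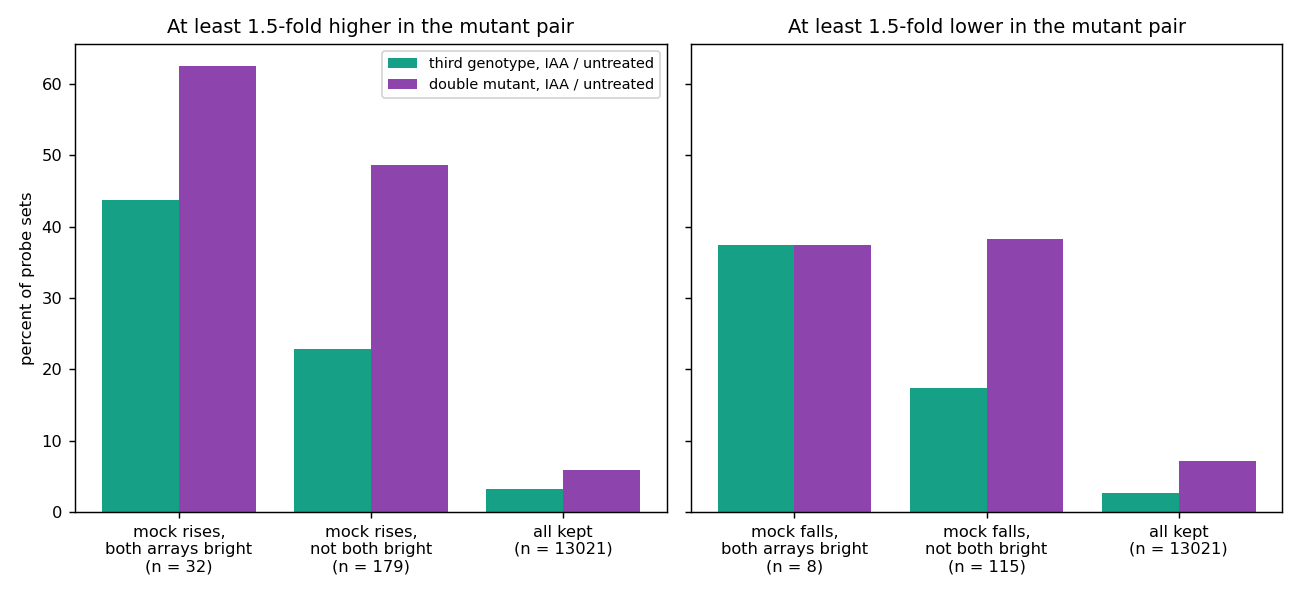
Percent of probe sets (y axis) that were at least 1.5-fold higher (left) or lower (right) with IAA than untreated in the third genotype (green) or the double mutant (purple), for probe sets at least 2-fold higher or lower with mock in wild type, split by brightness, and for all 13021 kept probe sets. Each bar is a share of probe sets from 1 pair of arrays. The left panel goes from 43.8% and 62.5% for bright probe sets higher with mock to 3.18% and 5.93% for all. The bright group lower with mock holds only 8 probe sets. Of the 179 not bright and higher with mock, 92 passed the filter through the mock array alone. Without them the shares are 33.3% and 52.9%.

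At the full 2-fold, 19 of the 13021 kept probe sets were higher both with mock and in both mutant pairs, and 4 were lower. The share of all kept probe sets at 2-fold in both mutant pairs is not given here. At 1.5-fold in both mutant pairs, 37 of the 211 (17.5%) were higher, against 1.52% of all kept. Without those kept through the mock array alone it was 32 of 119 (26.9%), against 1.47%. Of the 123, 16 (13%) were lower, against 1.04%. Of the probe sets at 2-fold in all 3 pairs, 10 higher ones and 1 lower one carry a single gene. The higher genes were AT1G72900, AT1G50040, EXO, COR27, AT1G55450, AT4G28085, AT3G46600, AT3G04210, AT3G19680 and AT1G25400, and the lower gene was CYP71B26. For each of the 10 the wild-type IAA array was at least 1.5-fold above the untreated array, which also enters the mock ratio.

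AT1G72900 read 120.1 untreated and 340.7 with mock in wild type, 67.7 and 385.2 untreated and with IAA in the third genotype, and 114.1 and 409.6 in the double mutant. The wild-type IAA array read 397.7. Its 3 untreated values, at most 120.1, and its 4 sprayed values, at least 340.7, did not overlap. AT1G72940 read 122.4 untreated and 158.4 with mock, a log2 ratio of 0.37. It went from 117.7 to 181.1 with IAA in the third genotype and from 133.8 to 470 in the double mutant.

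AT1G50040 read 45 untreated, under the floor, and 239.6 with mock, at least 3.69-fold higher. With IAA it read 274.1 in wild type, 198.8 against 56.4 in the third genotype and 231.3 against 82.4 in the double mutant. AT1G55450 read 240.9 untreated and 601.2 with mock, 2.50-fold higher, and AT4G28085 118.3 and 392.4, 3.32-fold higher. The mock value of AT4G28085 was the highest of the 7 arrays, above 207.1 to 244 with IAA. AT3G46600 read 187.9 untreated and 412 with mock, AT3G04210 198.7 and 432.7, and AT1G25400 130.1 and 351.2. For each of these last 3 genes, as for AT1G55450 and AT4G28085, the 4 sprayed arrays lay above the matching untreated array. The choice of these genes fixes this for the mock array and the mutant IAA arrays. The wild-type IAA array is compared with the same untreated array as mock.

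**Figure D3:**
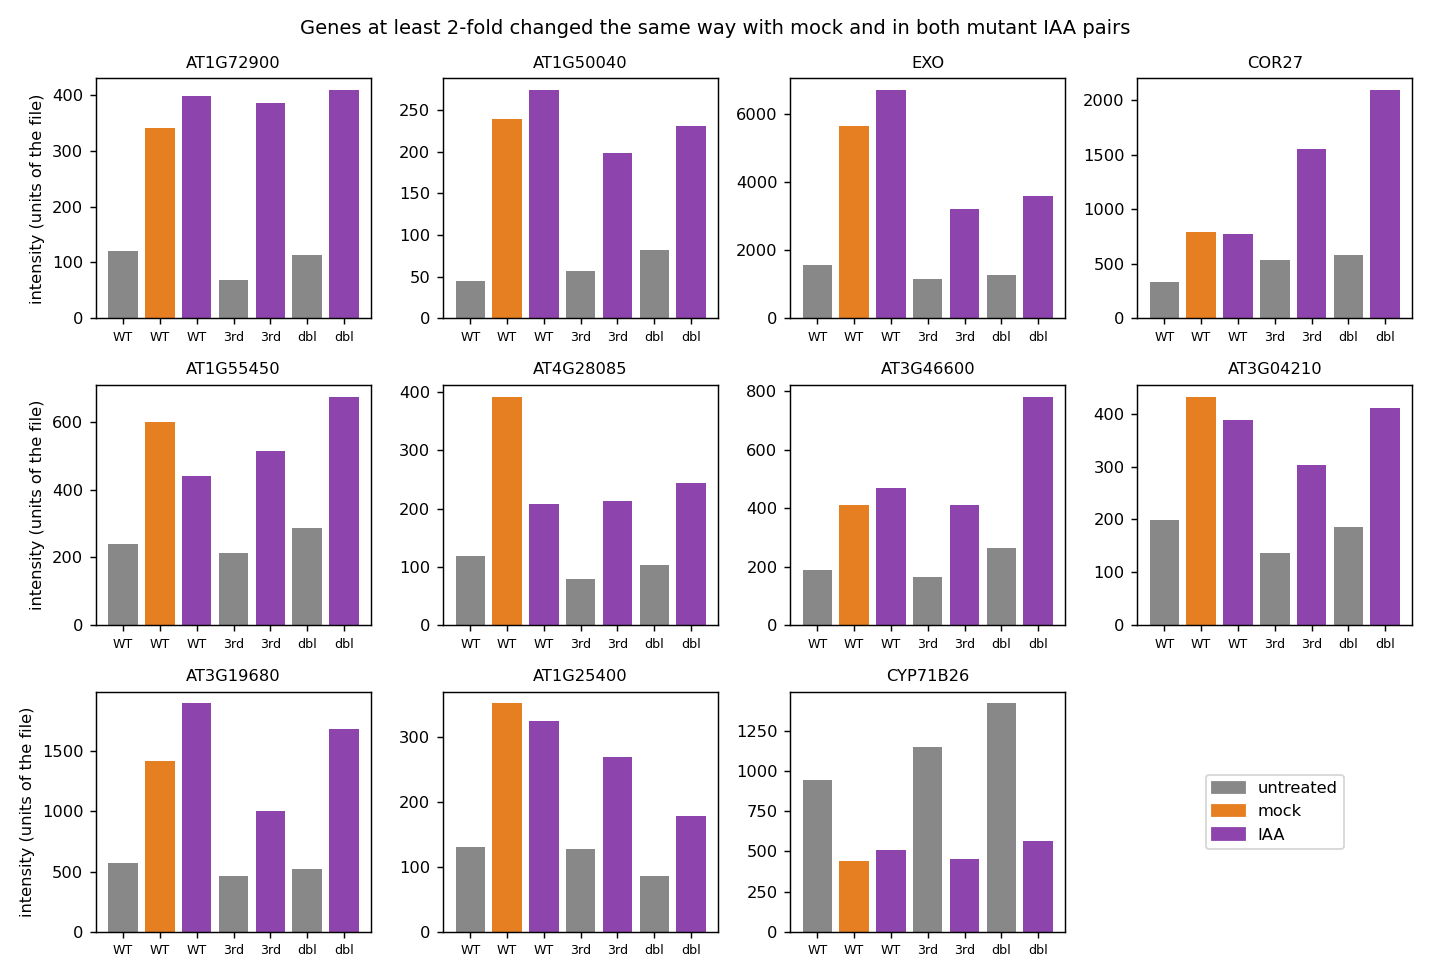
Intensity in the units of the file (y axis, from 0) of the 11 genes at least 2-fold changed the same way with mock in wild type and with IAA in both mutant genotypes, 1 bar for each of the 7 arrays (WT wild type, 3rd the third genotype, dbl double mutant). Grey bars are untreated, orange mock and purple IAA. For the first 10 genes the sprayed bars stand above the untreated bar of the same genotype, and for CYP71B26 below it. The choice of the genes fixes this for the mock bar and the mutant IAA bars.

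WRKY53, a transcription factor gene of leaf senescence and defence, was 3.06-fold higher with mock, at 266.8 against 87.1. It read 165.4 with IAA in wild type, 117.8 against 63.3 in the third genotype and 275.3 against 90.3 in the double mutant. The other kept WRKY gene, WRKY20, read 575.9 and 557.9. In the touch and calcium signalling list, 3 of the 8 genes were kept and none of the 3 reached 2-fold. Of the 5 too dim to be kept, CML38 read 75.4 untreated and 147.6 with mock, CML23 110.7 and 130, and AT4G35987 83.8 and 26.7. CML37, at 12.9 and 62.4, and CML43, at 48.9 and 54.1, were under the floor on both arrays. CML42, a calmodulin-like gene, read 335.6 untreated and 549 with mock, 1.64-fold higher, against 362.5 untreated and 372 with IAA in the third genotype and 319.7 and 296 in the double mutant. CML41 read 236.7 untreated, 272.4 with mock and, in wild type with IAA, 411. The zinc finger gene STZ read 325.2 and 434.5. In the receptor kinase list THE1, which is known to monitor the integrity of the cell wall, read 713.3 untreated and 1345 with mock, 1.89-fold higher, and FER, a related receptor kinase gene, 2798.6 and 2715.4.

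Genes of wall loosening were mixed. Of 27 listed expansin and xyloglucan endotransglucosylase (XTH) probe sets, enzymes and proteins that loosen or remodel the wall, 14 were kept; 3 were at least 2-fold higher with mock and none at least 2-fold lower, against 1.62% and 0.945% of all kept, and their median log2 ratio was 0.38, against -0.0169 over all kept. The median was -0.13 with the filter at the 70th percentile or over the other 6 arrays, and -0.135 with both arrays required to be bright, so its sign rests on dim members. EXLA2, an expansin-like gene, read 256.1 untreated, 554.3 with mock and, in wild type with IAA, 550.3, with 324.8 against 134.4 in the third genotype and 251 against 171.6 in the double mutant. XTH33, another of the 3, read 141.4 and 325. It passed the filter through the mock array alone, so it had to be higher there, as did EXPA24 and EXPB1 of the 14. EXLB1 read 84.8 and 211.9, with 70.1 on the wild-type IAA array. Below 2-fold, EXLA1 read 1292.6 and 2281.6 and XTH16 1945.2 and 3140.5. Both were also higher on each IAA array than on the untreated array of that genotype. EXPA15 and XTH32, in contrast, were lower, XTH32 at 1135.1 and 709.4. Of 20 kept genes of pectin, GH9 cellulases and the cellulose synthase-like family none reached 2-fold, and their median was 0.02.

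Cuticle genes were represented by 2 kept members. WSD1, which encodes a wax ester synthase, read 1612.2 untreated, 998.5 with mock and, in wild type with IAA, 1083.3, and SHN3, a transcription factor gene of the cuticle, 311.5 and 236.5. WSD1 was also lower with IAA in the third genotype, at 819 against 1023.5, and in the double mutant, at 514.9 against 559.9. These ratios were below 2-fold. The only kept gene of methanol and one-carbon metabolism, formate dehydrogenase (FDH), read 1529.9 and 1458.2.

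For genes of detoxification, 1 of 16 kept glycosyltransferases was at least 2-fold higher with mock, against 1.62% of all kept probe sets. It was UGT71C5, which is known to add glucose to abscisic acid, at 190.7 untreated and 402.3 with mock. None of 6 kept glutathione transferases reached 2-fold in either direction. The 6 kept cytochrome P450 genes all carry CYP71B symbols, so other P450 groups are not covered. Of the 6, 2 were at least 2-fold lower, against 0.945% of all kept probe sets. They were CYP71B26 and CYP71B31, the latter at 300.9 untreated, 135.2 with mock and 89.7 with IAA. CYP71B22 read 415.8 and 667. The medians of the glycosyltransferase, glutathione transferase and P450 lists were 0.03, 0.0036 and -0.04.

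Among transcription factors of the bHLH and bZIP families, BZIP28 was the 1 of 17 kept genes past 2-fold. It was lower, as were 0.945% of all kept probe sets. BZIP53, a factor of amino acid metabolism and seed maturation, read 1243.2 untreated and 2273.6 with mock, 1.83-fold higher. It was 2443.3 with IAA in wild type, 1858.1 against 1275.9 in the third genotype and 2058.4 against 1282.4 in the double mutant, so its sprayed arrays all lay above its untreated ones. BZIP61 read 333 and 561.6, and bHLH115 778.8 and 1249.7. NAC014, another transcription factor gene, read 203.2 untreated and 29.1 with mock, at least 3.13-fold lower, and 214.3 to 334.7 on the other 5 arrays.

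Of hormone and cold genes, COR27 was the 1 of 8 kept in the abscisic acid and drought list past 2-fold. It was higher, as were 1.62% of all kept probe sets. COR15B, which encodes a chloroplast protein of cold tolerance, read 976 and 1612.7, while its close relative COR15A read 1577.7 and 1538. In jasmonate synthesis OPCL1, a peroxisomal ligase of the pathway, read 471.6 and 742.7, and AIM1, of fatty acid breakdown, 2019.2 and 2106.5. In the light and clock list AT3G44450 read 280.4 untreated, 148 with mock and 83.2 with IAA, and the clock gene GI 1170.8 and 1325.4. Of 13 genes on the auxin list 5 were kept, and none of the 5 reached 1.5-fold with mock: HAT2 read 881.7 and 717.5, GH3.3 725.1 and 829.8, and WES1, also called GH3.5, 1138.7 and 1074.3. Of the 8 that were too dim to be kept, GH3.9 read 80 and 207.9 and IAA34 21.1, under the floor, and 123.5. HAT2 and GH3.3 were at 2111.9 and 2011.6 with IAA in wild type.

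**Figure D4:**
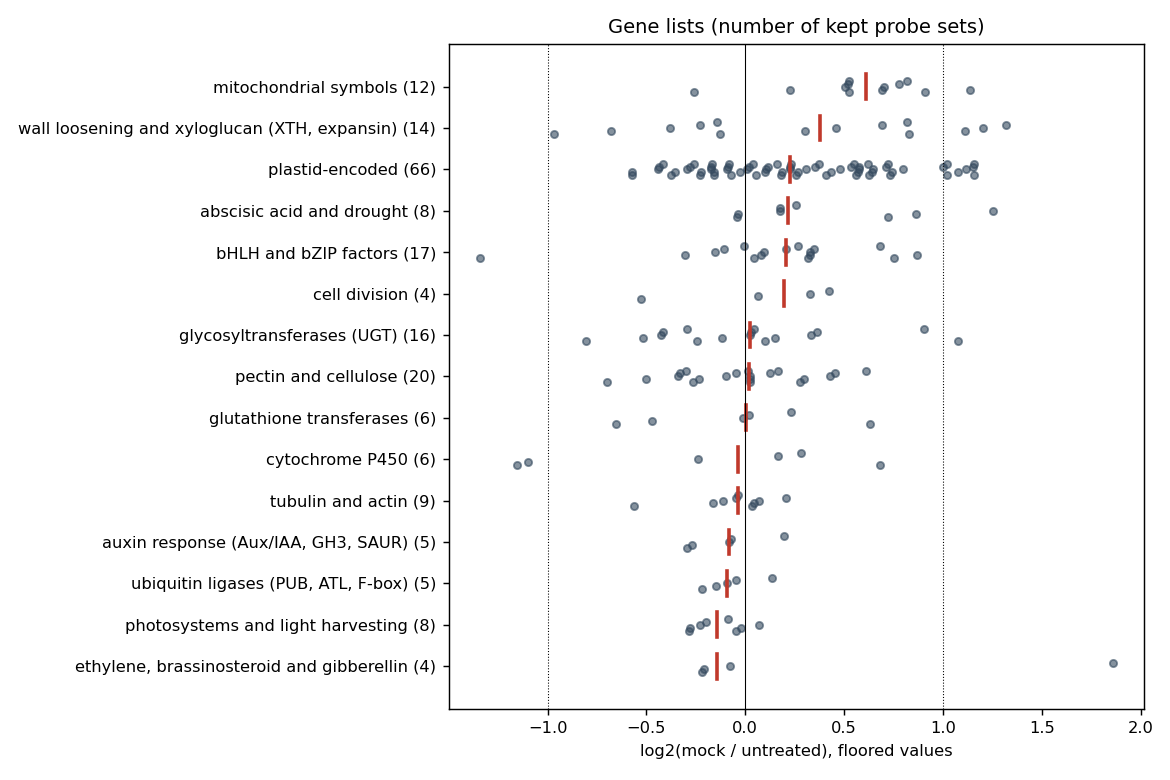
Log2 ratio of mock over untreated (x axis) for each kept probe set of the gene lists with 4 or more of them (rows, with that number in brackets); points are probe sets and red lines the list medians. Medians lie from -0.14 to 0.61, with the mitochondrial, wall loosening and plastid-encoded lists at the top and EXO as the far point of the ethylene, brassinosteroid and gibberellin list.

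Genes of the plastid genome encode parts of the photosystems, the ATP synthase, the NADH dehydrogenase-like (NDH) complex, ribosomes and RNA polymerase of the chloroplast. The kept plastid-encoded probe sets numbered 66, with 8 at least 2-fold higher with mock (1.62% of all kept were), 17 at least 1.5-fold higher (6.92% of all) and none that much lower. Their median log2 ratio was 0.23, with a range of 0.17 to 0.31 over the alternative settings. The 8 were rpl20, rpoB, ycf3, ndhG, psbB, ndhH, psbD and psbN. The photosystem II core genes psbB and psbD read 1439.1 and 3032.3, and 1071.1 and 2169.9, untreated first. For ndhH, of the NDH complex, the values were 271.7 and 550.8. In the third genotype psbB and psbD were 1840.2 and 1149.9 with IAA, against 2073.1 and 1320.2 untreated. In the double mutant they were 1915 and 1753.8 against 890.4 and 878.1. For ndhH the values were 479 against 284.9 in the third genotype and 356.7 against 211.7 in the double mutant, so it was higher with IAA in both, and psbB and psbD in the double mutant.

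By complex, the NDH genes had the largest median with mock, 0.71 over 9 genes, 5 of them at least 1.5-fold higher. The photosystem II genes had 0.11 over 15 genes, and the ribosomal protein genes -0.09 over 14, with 6 of the 14 higher. In the other pairs the median of all 66 was 0.34 with IAA in wild type, which shares the untreated array, 0.04 in the third genotype, compared with 0.22 in the double mutant. Of 8 kept nuclear genes of the photosystems, light harvesting and Rubisco activation, 7 were lower with mock, with a median of -0.14. Of these genes 7 lay above 3200 in mean intensity, where 77.1% of all 835 probe sets were lower and the median was -0.12. The largest difference was that of RCA, which encodes the activase of Rubisco, at 10297 and 8450.6.

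**Figure D5:**
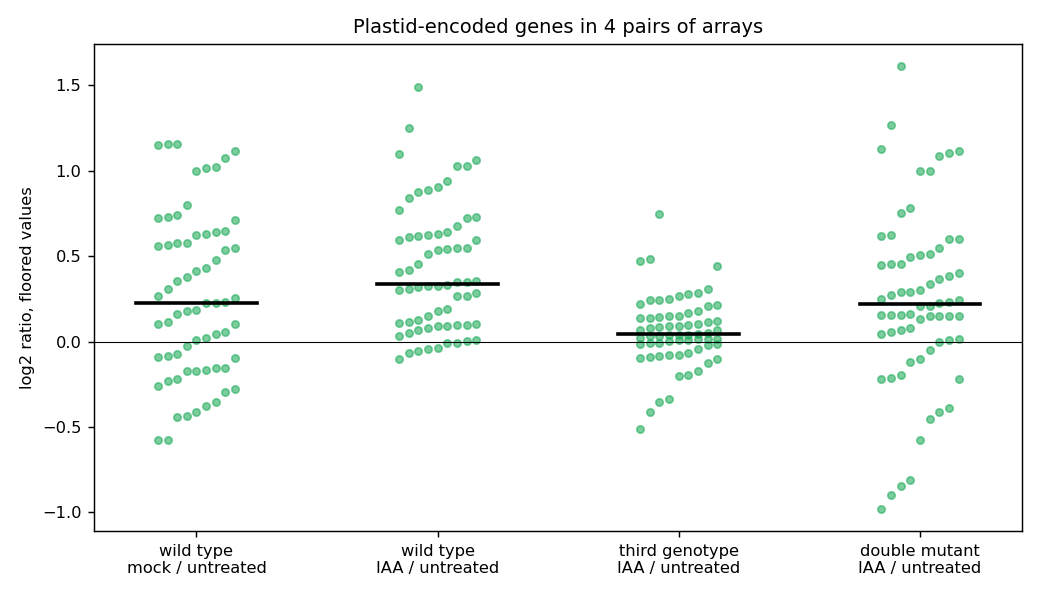
Log2 ratios (y axis) of the 66 kept plastid-encoded probe sets in 4 pairs of arrays, each point a probe set and each black line the median. The medians are 0.23 for mock, 0.34 for IAA in wild type, 0.04 for IAA in the third genotype and 0.22 for IAA in the double mutant; the first 2 columns share the wild-type untreated array.

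A list of probe sets with mitochondrial gene symbols was added after the data were seen. Of its 12 kept probe sets, 11 were higher with mock, against 47.7% of all kept probe sets, with a median of 0.61. Of the 12, 6 were higher by at least 1.5-fold, against 6.92%. However, cox2, nad4L and a nad1 probe set passed the filter through the mock array alone and had to be higher there. Of these, cox2 and nad4L are among the 6. Over the alternative settings the list median ran from 0.52 to 0.70. The respiratory chain genes cox1 and nad4 read 406.6 and 973.6 untreated, 697.8 and 1400.2 with mock, and 696.3 and 1663.2 with IAA in wild type. In the third genotype cox1 was 509.1 with IAA against 578.3 untreated, and in the double mutant 472.3 against 542.4. For nad4 the values were 1071.4 against 1070.1 in the third genotype and 866.2 against 1004.8 in the double mutant. The list's median was -0.17 in the third genotype, compared with 0.22 in the double mutant. The wild-type untreated array enters the mock and the wild-type IAA ratio alike. It was the lowest of the 7 arrays for cox1, and the second lowest for nad4, after the double-mutant IAA array.

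The largest ratios over all single-gene probe sets came mostly from dim signals, EXO being the exception among the higher ones. Of the 15 largest higher ones, between 3.53-fold and 4.58-fold on the floored scale, the median intensity was 276.8 with mock and 65.9 untreated, and 12 had their highest value of the 7 arrays on the mock array, as did 72.5% of all 211 and 16.2% of all kept. Of the 15, 10 were kept through the mock array alone, as were 92 of the 211, which fixes this for them. The others were picked for a high mock value as well, so these shares are partly set by the choice. PYK10, a beta-glucosidase gene of root endoplasmic reticulum bodies, read 278.7 with mock, at least 4.29-fold above 64.2 untreated, and 57.5 with IAA in wild type. It read 88.1 and 83.1 in the third genotype and 41.5 and 155.2 in the double mutant. PYK10 is the only root marker of its list named here, and its part in the mock pattern was not tested. AT5G39560, AT5G43230 and AT5G35690 likewise read 267.2, 253.4 and 248.8 with mock, with every other array at or below 126.8.

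AT4G31030, the largest, differed from these. It read 123.1 untreated and 563.4 with mock, 4.58-fold higher, and went from 150.7 to 418 in the third genotype and from 152 to 293.7 in the double mutant. On the wild-type IAA array it read 169.2. AT1G22330 read 65.9 untreated and 298 with mock, with 207.2 on the wild-type IAA array, 169.3 against 91 in the third genotype and 134.1 against 91.8 in the double mutant. The gene has another kept probe set, whose log2 ratio was 0.62 against 2.18 for this one. The remaining genes of the 15 were AT5G37230, AT2G37780, AT3G18840, AT1G50040, AT3G13630, EXO, AT1G11730, AT2G14850 and AT1G11270.

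Of the 15 largest lower ones, between 2.80-fold and 5.67-fold, the median intensity was 69.5 with mock and 261.5 untreated, and for 11 the mock array was the lowest of the 7, as it was for 77.2% of all 123 and 19.1% of all kept. All 123 were picked for a low mock value, so their share is partly set by the choice. AT1G75200 read 393.9 untreated and 69.5 with mock, 5.67-fold lower. It read 254.1 with IAA in wild type, 250.4 and 249.4 in the third genotype, and 302.1 and 15.2 in the double mutant. AT2G26520 and AT1G60230 had the same pattern, with 72.4 and 82.9 on the mock array, 43.3 and 52.1 on the double-mutant IAA array, and 186 to 301.2 on the other 5. For all 3 the low values were on the 2 arrays with the highest dim ends, and the part of that was not tested. AT1G48100 read 276.2 untreated and 41.6 with mock, at least 4.26-fold lower, and it was lower with IAA in every genotype, at 129.7, 143.8 and 91.5 against 276.2, 265.9 and 262.3. CR4, also named ACR4, a receptor kinase gene of the epidermis, read 301.9 and 94.4, and lay between 216.6 and 300.8 on the other 5 arrays. The remaining genes of this group were AT3G02320, AT4G03100, AT3G14750, AT5G26110, AT5G02570, AT1G55880, AT1G53450, AT3G50900, AT3G01490 and NAC014.

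Genes with more than 1 kept probe set allowed a check within the arrays. There were 54 such genes, and the spread of log2 ratios between probe sets of a gene had a median of 0.44. In 5 genes at least 1 probe set was past 2-fold, and in none were all of them.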

How the data were processed

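The authors deposited 1 table of linear intensity values from Affymetrix arrays, made with MAS5 per the submitters' processing notes. The 2% trimmed mean of every array was 500 in the table. Detection calls, masks and scaling factors were not used here. The members and the gene lists were chosen with earlier results of these data known, and 9 genes that only shared a symbol or prefix with a list were dropped from it after the values were seen. Affymetrix control probe sets were left out, values under the 25th percentile of all values (64.9) were raised to it, log2 was taken, and probe sets with no array above the 50th percentile (248.1) were dropped. Of the kept probe sets 6940 carry 1 gene, 250 several and 5831 no name here; names come from the platform annotation of 2016, updated through RefSeq TAIR10.1, which matched 13436 of 13513 single symbols on the array. Called means at least 2-fold. With 1 array a group no test was possible, and precision is limited by how few arrays there are. The ratio computation was tested on simulated data.

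Genes named are, by rule, the 15 largest differences each way, the 10 largest each way with both arrays above the 50th percentile, up to 12 each way that were 2-fold changed the same way in both mutant pairs, and list members past 2-fold (up to 8) or else the 3 largest. Others were named after their values were seen. Alternatives varied the floor, the filter, the normalization and the fold threshold. Python 3.11.15, numpy 2.4.6 and pandas 2.3.3 were used.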

Additional observations from a re-analysis of the deposited data

Results flagged for a closer look

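Probe sets outside the comparison carried more signal on the mock array than on any other. The median of the bacterial control probe sets was 28.1 with mock, against 5.2 to 15.9 on the other 6 arrays. The median of the probe sets that the filter on dim values left out was 67 with mock, against 44.1 to 55.9. The dim differences of the report ran both ways, with 179 probe sets higher (7.73%) and 115 lower (4.96%) among those not bright on both arrays. Of the 179, 92 passed the filter through the mock array alone and had to be higher there. Without them 87 were higher. The part of these control and left-out values in them was not tested.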

How the results depend on the processing

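The number of probe sets at least 2-fold changed depended on the treatment of dim values. It was 105 higher and 41 lower with the floor at the 40th percentile, 839 and 270 with no filter, 53 and 18 with the filter at the 70th percentile, and 32 and 8 with both compared arrays above the 50th percentile. Quantile normalization gave 150 and 215, aligned 10th percentiles 151 and 203, and the filter over the 6 arrays other than mock, added after seeing the data, 119 and 123. A 1.5-fold threshold gave 901 and 563, a 3-fold threshold 36 and 28. The share of the higher probe sets that were also higher in both mutant pairs was 44.7% with no filter, against 65.4%. Over all probe sets of these 2 settings that share was 23.5% and 30.5%. Of the lower ones, 62.5% were lower in both mutant pairs with both arrays bright, which is 5 of 8, against 49.6%. Over all probe sets of these 2 settings 33.9% and 32.5% were. Except where a setting tests other probe sets or another threshold by construction, the cause was not tested.

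Over the 5 alternatives that can change a ratio, which are those of floor and scaling, 65 single-gene probe sets were followed. They had the largest ratios, over all or among bright ones, or were 2-fold changed and shared by both mutant pairs at 1.5-fold. Some of them are not named above, and genes named only as list members are not among them. None of the 65 took the opposite sign. The log2 ratio of AT1G20070, however, went from -1.25 to 0 with the floor at the 40th percentile. Of 325 values 36 moved by over 1.5-fold, 30 with the floor at the 40th percentile and 6 with it at the 10th. The log2 ratio of EXO ran from 1.85 to 1.91, that of COR27 from 1.22 to 1.28 and that of BZIP28 from -1.42 to -1.31. Dim genes ran wider, PYK10 from 0.83 to 2.15 and AT1G75200 from -2.71 to -1.33. No paired analysis was possible because each group holds 1 array.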
